A study of Mus musculus with 6 samples.

Results

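Transcripts of the stem cell heptad and of the CBFA2T3 corepressor complex were compared between haematopoietic stem cells sorted as CCR2-positive and as CCR2-negative. The members were chosen by symbol: Gata2, Runx1, Tal1, Lyl1, Lmo2, Fli1 and Erg, which make up the heptad, with Etv6, Cbfa2t3 and Ldb1. All 10 were measured, of 22180 genes on the array, each by 1 probe set annotated to that gene alone. The RNA came from bone marrow of C57BL/6J mice, with no age or treatment given in the sources used here. Each of the 6 arrays held 1 pool of sorted cells from 20 mice, and there were 3 pools per group, called biological replicates in the design. The labels do not state which other markers were used in the sort, nor whether a mouse gave cells to both groups. CCR2 is the chemokine receptor that guides monocytes out of the marrow, and the groups differ by its presence on the sorted cell.

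GATA2, RUNX1, TAL1, LYL1, LMO2, FLI1 and ERG bind together at enhancers of blood stem and progenitor cells, their own genes' enhancers included. TAL1 and LYL1 are related basic helix-loop-helix proteins that bind DNA with an E protein partner. LMO2 does not bind DNA itself and bridges them to GATA factors and to LDB1, which dimerises and brings distant enhancers and promoters together. CBFA2T3, also called ETO2 or MTG16, is a corepressor of the MTG family that docks on the TAL1 complex and holds back maturation genes. ETV6 is a repressor of the ETS family that adult stem cells need to persist in the marrow.

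Of the 10 members, 8 had a lower mean in the CCR2-positive pools and 2, Tal1 and Ldb1, a higher one. Values are deposited log2 values, so that 1 unit is a doubling, and each difference is the CCR2-positive mean minus the CCR2-negative mean with its standard error. No member passed an adjusted p of 0.05 (limma with Benjamini-Hochberg adjustment over all 22180 genes). The smallest adjusted p among the members was 0.188, for Etv6. No gene passed on the whole array either (0.00% of 22180 genes), where the smallest adjusted p was 0.177, with 2716 genes at an unadjusted p under 0.05. At that unadjusted threshold 4 members were lower, Etv6, Lmo2, Lyl1 and Erg, and 0 were higher, against 6.61% of all genes lower and 5.63% higher. Among the 11090 genes at or above the median level, where all members lie, 11.3% were lower at that threshold. The count of 4 was 2 without CCR2-negative replicate 1, 2 without CCR2-positive replicate 2 and 7, with Tal1 higher among them, without CCR2-positive replicate 1. The median difference of the members was -0.34, and that of all genes was 0.03. Lower means by any amount were found for 44.0% of all genes and for 56.1% of those at or above the median level. The members were picked with earlier results of these arrays known, and several regulate one another, so these counts describe the list and test nothing about it.

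**Figure D1:**
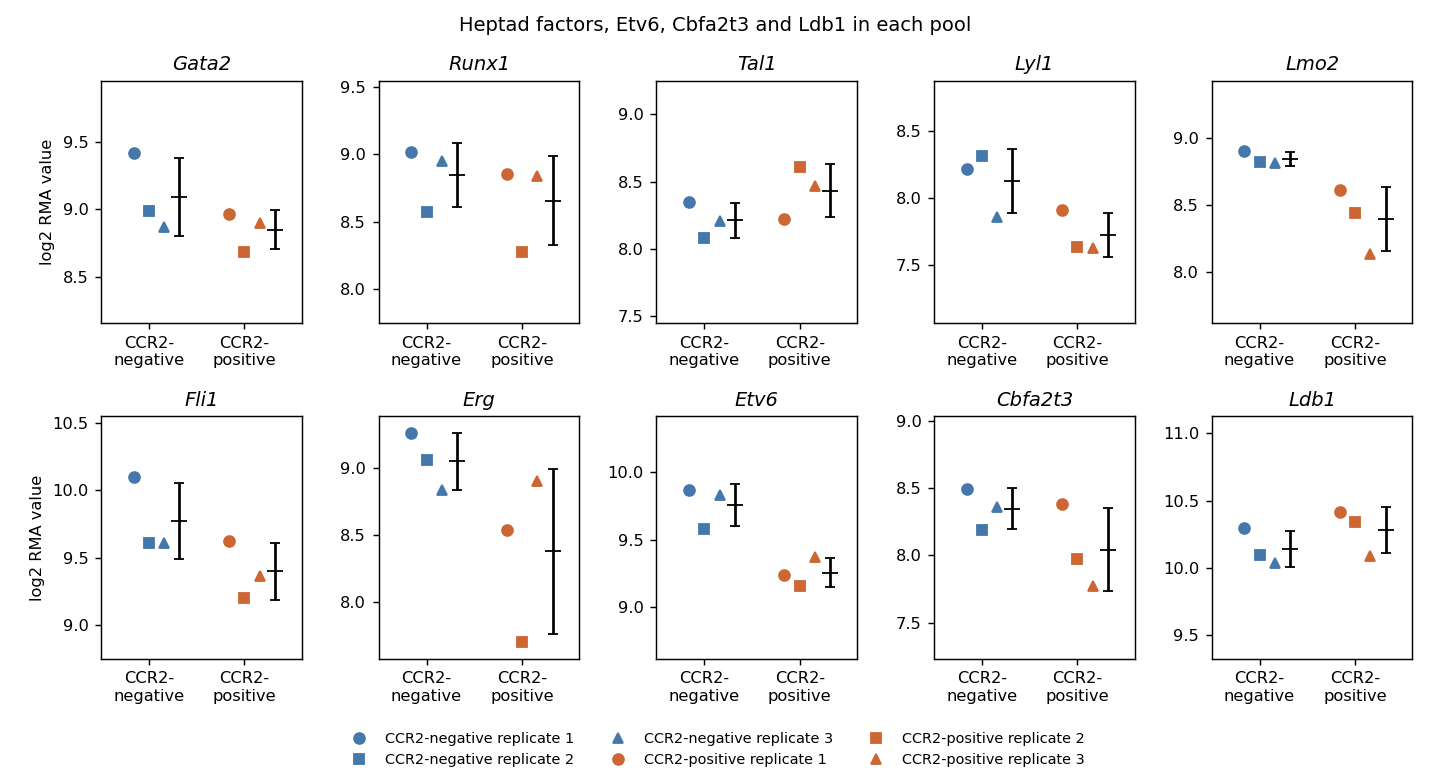
Log2 RMA value (vertical axis, 1.8 units high in every panel) of the 10 members in each pool, with CCR2-negative pools in blue and CCR2-positive pools in orange. Symbols mark the replicate and black bars the mean and SD of the 3 pools; for Etv6 and Lmo2 the groups do not overlap, and for Erg 1 CCR2-positive pool lies at 7.71.

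The Ccr2 transcript did not separate all pools by their labels. Its log2 values were 5.64, 6.26 and 5.83 in CCR2-negative replicates 1 to 3 and 6.81, 7.10 and 6.18 in CCR2-positive replicates 1 to 3. The sort was made on the receptor, and for its transcript CCR2-positive replicate 3 lay below CCR2-negative replicate 2. The difference was 0.79 ± 0.24, or 1.73-fold higher (limma adjusted p = 0.274). Without either of these pools all members kept their sign, and 3 members were at an unadjusted p under 0.05 without the former and 3 without the latter. Of 12 stem cell markers 10 were measured, with means of at least 6.20, above the array medians of 5.48 to 5.58. The list means of erythroid markers (7.85 to 9.03 over the pools) and of megakaryocyte markers (7.80 to 8.23) also lay above these medians. Such levels therefore do not check the label.

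The promoters of 8 of the 10 members were listed by RefSeq, with 16 starts in all, and were searched for words of the factors' own motifs because the factors are known to bind at one another's genes. The 250 bases before each start were searched on both strands for short words of 4 motifs. The GATA words were AGATAA or AGATAG or TGATAA or TGATAG, and the ETS words were AGGAAG or AGGAAA or CGGAAG or CGGAAA. The RUNX words were TGTGGT or TGCGGT, and the E-boxes CAGCTG or CAGATG. No match overlapped another. ETS words stood before 10 of the 16 starts, against 57.2% of 32851 listed promoters. GATA words stood before 4 (26.5% of all), a RUNX word before 1 (18.6%) and E-boxes before 1 (25.5%). The stretches printed run 5′ to 3′ in build GRCm38.p6 and are those of Etv6, with the smallest p, of the oppositely directed pair Lyl1 and Tal1, and of the corepressor gene Cbfa2t3. The selection was made with the differences known. Each ends at the base before the outermost start listed, and capitals mark the matches. For Cbfa2t3 and Lyl1 the gene span given by RefSeq begins upstream of that start. Most of the Cbfa2t3 stretch and the end of the Lyl1 stretch thus lie within the gene.
Etv6, chr6:134035450-134035699, plus strand: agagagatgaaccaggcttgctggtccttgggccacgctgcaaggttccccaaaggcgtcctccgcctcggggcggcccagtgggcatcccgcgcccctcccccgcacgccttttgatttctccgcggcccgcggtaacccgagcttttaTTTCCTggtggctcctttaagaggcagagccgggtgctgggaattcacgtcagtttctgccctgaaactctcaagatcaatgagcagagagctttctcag
Lyl1, chr8:84701207-84701456, plus strand: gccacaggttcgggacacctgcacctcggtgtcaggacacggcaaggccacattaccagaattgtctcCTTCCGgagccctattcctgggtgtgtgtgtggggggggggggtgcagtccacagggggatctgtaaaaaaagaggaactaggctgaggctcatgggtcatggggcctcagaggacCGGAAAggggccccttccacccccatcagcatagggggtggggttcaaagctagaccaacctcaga
Tal1, chr4:115056176-115056425, plus strand: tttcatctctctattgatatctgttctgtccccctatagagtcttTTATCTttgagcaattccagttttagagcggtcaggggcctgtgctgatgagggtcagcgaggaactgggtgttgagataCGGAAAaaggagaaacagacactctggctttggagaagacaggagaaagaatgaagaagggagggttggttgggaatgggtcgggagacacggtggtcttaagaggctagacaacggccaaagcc
Cbfa2t3, chr8:122699110-122699359, minus strand: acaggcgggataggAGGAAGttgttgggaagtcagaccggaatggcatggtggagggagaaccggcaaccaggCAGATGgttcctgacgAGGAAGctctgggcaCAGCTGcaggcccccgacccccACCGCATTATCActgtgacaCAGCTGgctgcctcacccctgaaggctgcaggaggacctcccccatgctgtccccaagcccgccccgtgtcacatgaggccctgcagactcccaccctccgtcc
The outermost listed Cbfa2t3 start was the 1 start of 16 with words of every kind, namely 3 E-boxes, 2 ETS words, and a RUNX word directly followed by a GATA word. Of these words only the first ETS word lies outside the gene span. How many of all listed promoters hold words of all 4 motifs was not counted. Lyl1 had 2 ETS words and Tal1 had 1 ETS and 1 GATA word. Etv6 had 1 ETS word. These are matches of letters and say nothing of binding in these cells.

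The ETS factor genes of the group, Etv6, Fli1 and Erg, were all lower in the CCR2-positive pools. Etv6 had 9.87, 9.58 and 9.83 in the CCR2-negative and 9.24, 9.16 and 9.37 in the CCR2-positive pools. Every CCR2-positive pool lay below every CCR2-negative pool, as for 7.88% of all genes. The difference was -0.51 ± 0.12, or 1.42-fold lower (95% interval -0.78 to -0.24, unadjusted p = 0.00238, limma adjusted p = 0.188), and 277 genes had a smaller p. It stayed between -0.60 and -0.45 with any 1 pool left out.

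Erg had the largest difference of the members and the largest spread. ERG is an ETS factor needed for the maintenance of adult stem cells. Its values were 9.26, 9.06 and 8.83 in the CCR2-negative pools and 8.54, 7.71 and 8.90 in the CCR2-positive pools. CCR2-positive replicate 2 was far below all others, and CCR2-positive replicate 3 was above CCR2-negative replicate 3, so the groups overlapped. The difference was -0.67 ± 0.27, or 1.59-fold lower (95% interval -1.29 to -0.05, limma adjusted p = 0.377). Without CCR2-positive replicate 2 it was -0.33, and without CCR2-positive replicate 3 it was -0.93.

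Fli1, the close relative of Erg, had 10.10, 9.61 and 9.61 in the CCR2-negative and 9.63, 9.20 and 9.37 in the CCR2-positive pools. The groups overlapped by the narrow margin between 9.63 and 9.61, and CCR2-negative replicate 1 was highest. The difference was -0.37 ± 0.17, or 1.30-fold lower, with an interval of -0.76 to 0.01 and a limma adjusted p of 0.415. It was -0.21 without CCR2-negative replicate 1. Within a pool, Erg minus Fli1 differed between the groups by -0.29 ± 0.31 (exact permutation p = 0.5, two-sided). This contrast was smaller than its standard error, so the larger difference of Erg was not separable from that of Fli1. With 3 against 3 pools the permutation test cannot give a p under 0.1.

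Lmo2, the bridging protein gene of the TAL1 complex, was lower in every CCR2-positive pool. It had 8.90, 8.82 and 8.81 in the CCR2-negative and 8.61, 8.44 and 8.14 in the CCR2-positive pools. The CCR2-negative pools were close together, with an SD of 0.05 against 0.24, and the groups did not overlap. The difference was -0.45 ± 0.13, or 1.37-fold lower (95% interval -0.75 to -0.14, unadjusted p = 0.00904, limma adjusted p = 0.261). It was -0.32 without CCR2-positive replicate 3, whose value was the lowest. Etv6 and Lmo2 were the 2 members of 10 whose pools did not overlap in either direction, against 18.6% of all genes.

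Lyl1 and Tal1, the helix-loop-helix pair, had differences of opposite sign. Lyl1 had 8.22, 8.31 and 7.86 in the CCR2-negative and 7.91, 7.64 and 7.63 in the CCR2-positive pools, with CCR2-positive replicate 1 just above CCR2-negative replicate 3. Its difference was -0.40 ± 0.15, or 1.32-fold lower (95% interval -0.74 to -0.07, unadjusted p = 0.0243, limma adjusted p = 0.334). Tal1 had 8.35, 8.09 and 8.21 in the CCR2-negative and 8.22, 8.61 and 8.47 in the CCR2-positive pools. CCR2-positive replicates 2 and 3 were above all CCR2-negative pools, while replicate 1 lay among them. The Tal1 difference was 0.22 ± 0.13 (95% interval -0.08 to 0.52, limma adjusted p = 0.531), and it was 0.13 without CCR2-positive replicate 2. Lyl1 minus Tal1 was -0.13, 0.22 and -0.35 in the CCR2-negative and -0.31, -0.97 and -0.84 in the CCR2-positive pools. The groups overlapped in this contrast, which differed by -0.62 ± 0.26 (exact permutation p = 0.2, two-sided).

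Ldb1, the looping factor gene, had 10.29, 10.10 and 10.04 in the CCR2-negative and 10.42, 10.34 and 10.09 in the CCR2-positive pools. The groups overlapped and the difference was 0.14 ± 0.13 (95% interval -0.15 to 0.43, limma adjusted p = 0.683). It was 0.075 without CCR2-positive replicate 1 and 0.24 without CCR2-positive replicate 3. LMO2 and LDB1 bind each other, and Lmo2 minus Ldb1 was -1.39, -1.28 and -1.22 in the CCR2-negative and -1.81, -1.91 and -1.95 in the CCR2-positive pools. These groups did not overlap, and the contrast differed by -0.59 ± 0.06 (exact permutation p = 0.1, two-sided, the smallest that 3 against 3 pools allow). Such a contrast within an array does not depend on centring, and it was -0.64 to -0.55 over all 16 alternatives of processing or left-out pools. Of these, the filters, replicate block, other variance models, probe set settings and median centring cannot change its value. Lmo2 minus Ldb1 was 1 of 4 contrasts between pairs of members, chosen after their values were seen. With adjustment over the 4 its exact permutation p was 0.4, and those of the others were 0.4 to 0.5. Over the same alternatives Erg minus Fli1 ran from -0.57 to -0.05, Cbfa2t3 minus Tal1 from -0.80 to -0.31 and Lyl1 minus Tal1 from -0.82 to -0.40.

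Cbfa2t3, the corepressor gene, had 8.49, 8.19 and 8.36 in the CCR2-negative pools. In the CCR2-positive pools it had 8.38, 7.98 and 7.77. CCR2-positive replicates 2 and 3 were below all CCR2-negative pools, and CCR2-positive replicate 1 was above 2 of them. The difference was -0.31 ± 0.16, or 1.24-fold lower (95% interval -0.68 to 0.07, limma adjusted p = 0.491). It ranged from -0.47 without CCR2-positive replicate 1 to -0.17 without CCR2-positive replicate 3. Cbfa2t3 minus Tal1, the corepressor gene against that of the factor it docks on, was 0.15, 0.10 and 0.15 in the CCR2-negative pools. In the CCR2-positive pools it was 0.16, -0.63 and -0.70, so replicate 1 was near the CCR2-negative pools and the others lay apart (difference -0.53 ± 0.28, exact permutation p = 0.4, two-sided).

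Gata2 and Runx1, the remaining factors of the heptad, had lower means with intervals that include 0. GATA2 is needed for the emergence and survival of stem cells, and RUNX1 for their formation in the embryo. Gata2 had 9.42, 8.99 and 8.87 in the CCR2-negative and 8.97, 8.68 and 8.90 in the CCR2-positive pools (difference -0.24 ± 0.16, 95% interval -0.60 to 0.12, limma adjusted p = 0.563). Runx1 had 9.02, 8.57 and 8.95 in the CCR2-negative and 8.85, 8.27 and 8.84 in the CCR2-positive pools (difference -0.19 ± 0.19, 95% interval -0.62 to 0.23, limma adjusted p = 0.706). The groups overlapped for both genes. The Gata2 difference was -0.08 without CCR2-negative replicate 1, and that of Runx1 was -0.0015 without CCR2-positive replicate 2 and -0.33 without CCR2-negative replicate 2. GATA2 is also a factor of mast cells and basophils, and the basophil protease gene Mcpt8 had 5.89, 6.41 and 6.36 in the CCR2-negative and 5.96, 8.76 and 9.09 in the CCR2-positive pools. These cells had 8 markers here, Gata2 among them. At an unadjusted p under 0.05, 1, Mcpt8, was higher and 0 were lower (5.63% and 6.61% of all genes). That count was 2 without CCR2-positive replicate 1 and 0 without any other pool. By any amount 6 of the 8 were higher and 2, Gata2 and Cpa3 (-0.34 ± 0.24), lower. Hdc, the histamine-forming enzyme gene, had a difference of 0.18 ± 0.11, with group means of 4.11 and 4.29, below the array medians. The mean of the 7 markers other than Gata2 was 4.93 to 5.10 in CCR2-negative and 4.69 to 5.67 in CCR2-positive pools. Its part in the Gata2 values was not tested.

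**Figure D2:**
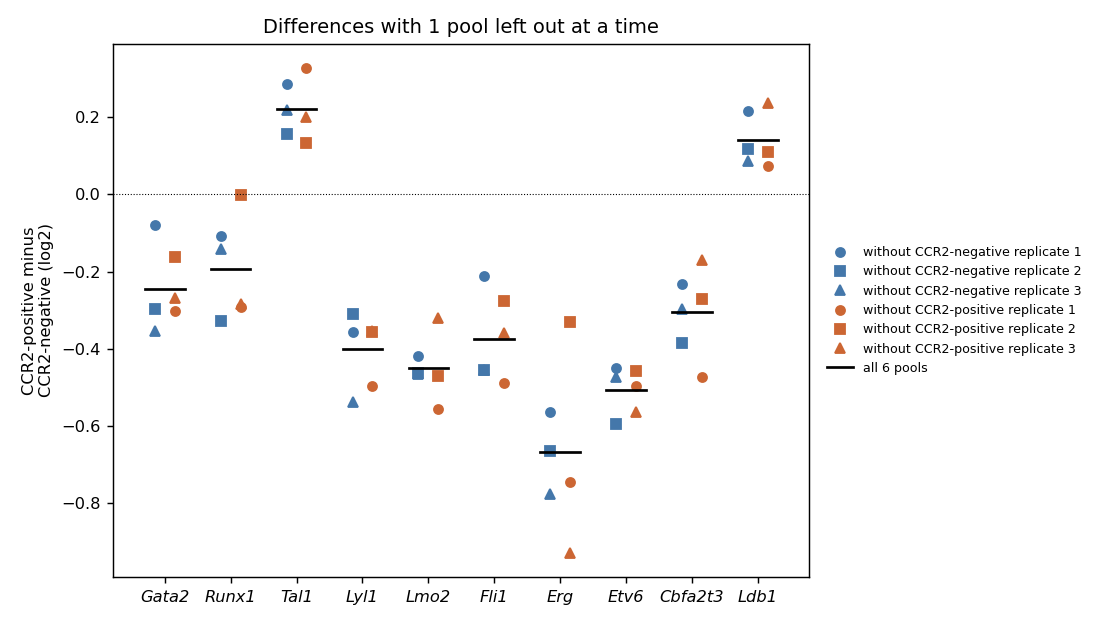
Difference between the groups (vertical axis, log2) for each member with all 6 pools (black line) and with 1 pool left out at a time (symbols, blue for a CCR2-negative and orange for a CCR2-positive pool). Etv6 stays between -0.60 and -0.45, while Erg moves to -0.33 and Runx1 to -0.0015 without CCR2-positive replicate 2.

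The members did not follow 1 common profile over the pools. CCR2-negative replicate 1 held the highest value of 7 members and lay above the 6-pool mean for all 10, by a median of 0.29. CCR2-positive replicate 2 held the lowest value of 5 members (Gata2, Runx1, Fli1, Erg and Etv6) and the highest of Tal1. CCR2-positive replicate 3 held the lowest value of Lyl1, Lmo2 and Cbfa2t3. Erg lay 0.19 above its mean in that pool, where Lmo2 lay -0.48 and Cbfa2t3 -0.42 from theirs. CCR2-positive replicate 1 was nearest to the middle, with a median deviation of -0.0080.

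Marker levels of other cell types differed along with the members. Of 11 measured erythroid markers all were higher in the CCR2-positive pools, 8 of them at an unadjusted p under 0.05 (5.63% of all genes). Of these markers 0 passed an adjusted p of 0.05, and their median difference was 0.72. The median was 0.45 without CCR2-negative replicate 1, and the count was 5 without CCR2-positive replicate 2. Aqp1, the water channel of red cells, differed by 0.78 ± 0.15, Tspo2 by 0.92 ± 0.28 and Epor, the erythropoietin receptor, by 0.51 ± 0.15. Their mean log2 level ran from 7.85 to 8.36 in the CCR2-negative and from 8.53 to 9.03 in the CCR2-positive pools. It lay -0.62 from its 6-pool mean in CCR2-negative replicate 1, where most members were highest, and 0.56 above it in CCR2-positive replicate 2, where 5 members were lowest. In CCR2-positive replicate 3, where Lyl1, Lmo2 and Cbfa2t3 were lowest, it lay 0.06 above. In CCR2-positive replicate 1 it lay 0.26 above, with the members' median deviation at -0.0080. Tal1, which erythroid cells also express, was highest in CCR2-positive replicate 2 and lay 0.02 above its mean in CCR2-negative replicate 1. The part of erythroid cells in the members' values was not tested.

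Of 11 monocyte markers 5 were higher and 0 lower at an unadjusted p under 0.05 (5.63% and 6.61% of all genes). Their median was 0.35, and 3 were higher without CCR2-positive replicate 2. Lgals3, which encodes galectin-3, differed by 0.50 ± 0.11, F13a1 by 0.66 ± 0.18 and Itgam, which encodes CD11b, by 0.47 ± 0.16. Their mean level was 6.12 to 6.18 in the CCR2-negative and 6.41 to 6.60 in the CCR2-positive pools. Of 12 neutrophil markers 3 were higher and 0 lower, with a median of 0.24, and their mean level was 5.05 to 5.45 against 5.35 to 5.98. The count was 1 without CCR2-negative replicate 1, and the median was 0.41 without CCR2-positive replicate 3. Lcn2 differed by 0.58 ± 0.14 and the granule genes Ngp and Chil3 by 0.62 ± 0.22 and 0.60 ± 0.24. Only 5 monocyte and 5 neutrophil markers lay at or above the median level, Itgam and Ngp not among them. In a fit of such genes alone, 2 of each list were higher at that threshold. Dimmer genes were more often higher, since 44.0% of all genes but 56.1% of those at or above the median level had lower means. No marker is listed at 0, since the log2 values have no true zero. In pooled cells, fewer cells of a type and less RNA per cell cannot be told apart, and the part of these cell types in the members' differences was not tested.

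Markers listed for stem cells were mostly lower. Of the 10 measured, 7 were lower and 1, Gfi1b, was higher at an unadjusted p under 0.05, and 0 passed an adjusted p of 0.05. At that unadjusted threshold 6.61% of all genes were lower and 5.63% higher. Of genes at or above the median level 11.3% were lower. The markers had a median difference of -0.42. Cd34 differed by -0.83 ± 0.17, Tek, the angiopoietin receptor, by -0.82 ± 0.16 and the homeobox gene Hoxb5 by -0.47 ± 0.11. Their mean level was 7.87 to 8.16 in the CCR2-negative and 7.40 to 7.66 in the CCR2-positive pools.

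**Figure D3:**
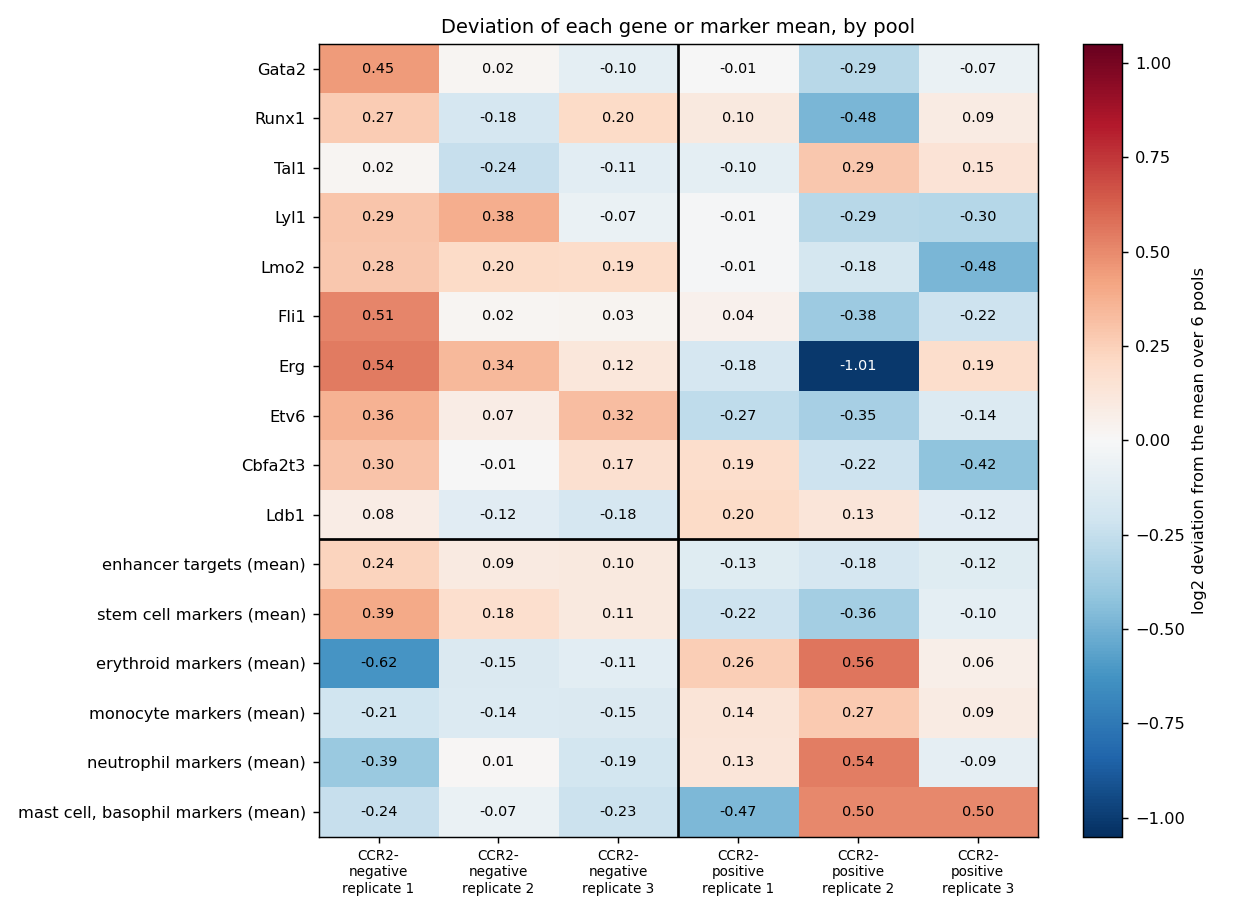
Deviation of each member (rows above the line) and of the mean of each marker or target list (rows below it) from its mean over the 6 pools, in log2 units, with red above and blue below the mean. Most members are highest in CCR2-negative replicate 1, where the erythroid marker mean is at -0.62, and Erg is at -1.01 in CCR2-positive replicate 2.

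Genes with enhancers known to be bound by several of the heptad factors were mostly lower. Of 12 measured, 7 were lower and 1 higher at an unadjusted p under 0.05 (6.61% and 5.63% of all genes). Of genes at or above the median level 11.3% were lower at that threshold. In the list 0 passed an adjusted p of 0.05, and the median difference was -0.32. Leaving out CCR2-negative replicate 1 gave 4 lower genes, as did leaving out CCR2-positive replicate 1. The stem cell marker list also holds Cd34, Tek and Kit, which are among the lower genes, and Gfi1b, the higher gene. Spi1, another of the lower genes, also stands in the partner and ETS lists below. Meis1, a homeobox factor of stem cells, differed by -0.64 ± 0.17 and Hhex, another homeobox gene, by -0.40 ± 0.14. The list mean was 8.45 to 8.59 in the CCR2-negative and 8.17 to 8.23 in the CCR2-positive pools, without overlap. Kit had 10.25, 9.84 and 10.06 in the CCR2-negative and 9.67, 9.81 and 9.70 in the CCR2-positive pools (difference -0.32 ± 0.13). Myb, a factor of proliferating progenitors, had a difference of -0.03 ± 0.11.

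Genes that CBFA2T3 is known to hold back in erythroid and megakaryocytic precursors did not share a direction. Of 8 measured, 2 were higher and 1 lower at an unadjusted p under 0.05 (5.63% and 6.61% of all genes). Of the 8, 0 passed an adjusted p of 0.05, and the median was 0.12. The median was 0.065 without CCR2-negative replicate 1. With 1 pool left out 1 to 2 were higher, 1 of them without CCR2-negative replicate 2, CCR2-positive replicate 1 or CCR2-positive replicate 2. The lower count was 0 without CCR2-negative replicate 1, CCR2-positive replicate 2 or CCR2-positive replicate 3. Klf1, the erythroid master factor gene, differed by 0.72 ± 0.24 and Slc4a1, the anion exchanger of red cells, by 0.29 ± 0.12. Of the platelet genes, Gp9 differed by -0.52 ± 0.20 and Pf4 by 0.35 ± 0.16. Klf1 and Slc4a1 also stand in the erythroid marker list above.

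Binding partners of the complexes reached an unadjusted p under 0.05 in 3 of 23 cases, near the array's own share of 12.2%. Of these 1 was lower and 2 higher, 0 passed an adjusted p of 0.05, and the median of the list was -0.09. Without CCR2-negative replicate 3 the count was 0. Without CCR2-positive replicate 2 there were 4 lower and 0 higher, and without CCR2-positive replicate 3 there were 4 lower and 3 higher. The lower partner was Spi1, which encodes the myeloid and lymphoid factor PU.1 (-0.32 ± 0.11). The higher partners were the related repressor genes Gfi1b (0.32 ± 0.13) and Gfi1 (0.32 ± 0.13). Ep300, a histone acetyltransferase gene, had -0.26 ± 0.12. The corepressor enzymes on which MTG proteins draw showed small differences, with 0.12 ± 0.13 for Hdac1, -0.01 ± 0.12 for Hdac2 and 0.13 ± 0.16 for Hdac3. Cbfb, the partner of RUNX1, had -0.25 ± 0.16.

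E protein and ID genes are those of the partners and inhibitors of TAL1 and LYL1. Of 7, 0 were at an unadjusted p under 0.05 by limma, against 12.2% of all genes. Their median was 0.12, and 2 were higher at that threshold without CCR2-positive replicate 3. Tcf3, which encodes E2A, had 0.32 ± 0.17 and Tcf12, which encodes HEB, -0.12 ± 0.11. The inhibitor genes Id3 and Id4 had 0.21 ± 0.10 and 0.21 ± 0.12. Their group means, 4.81 and 5.02 for Id3 and 4.72 and 4.93 for Id4, lay below the array medians. The list median was -0.02 in a fit that kept the 4 genes at or above the median level. The GATA, RUNX, LMO, LDB, TAL and MTG families had 13 measured paralogs besides the members. At an unadjusted p under 0.05, 1 was lower and 0 higher (6.61% and 5.63% of all genes). The median was 0.10, and it was -0.0033 without CCR2-positive replicate 3. The lower count was 2 without CCR2-positive replicate 1 or 2. The lower paralog was Gata3 (-0.32 ± 0.10). Lmo4 had -0.44 ± 0.20, Gata1, the erythroid GATA factor, 0.44 ± 0.20, and Gata4 0.24 ± 0.11.

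Other ETS family genes were lower in 5 and higher in 1 of 22 cases at an unadjusted p under 0.05 (6.61% and 5.63% of all genes). Of the 22, 0 passed an adjusted p of 0.05. The lower count was 3 without CCR2-negative replicate 1 and 3 without CCR2-negative replicate 3. Elk3 had -0.57 ± 0.16, Elf4, which encodes a factor that governs stem cell quiescence, -0.45 ± 0.11, and Elf1 -0.36 ± 0.12. Elf2 and Spi1 were the other two. Of the 22 genes 7 did not overlap between the groups, against 18.6% of all genes, namely these 5, Spib and Etv2 (-0.11 ± 0.10). Spib, a lymphoid ETS gene, had 0.54 ± 0.12 and means of 3.90 and 4.43, below the array medians. The median of the family was -0.05, and -0.22 among the 14 at or above the median level, where those 5 lie.

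**Figure D4:**
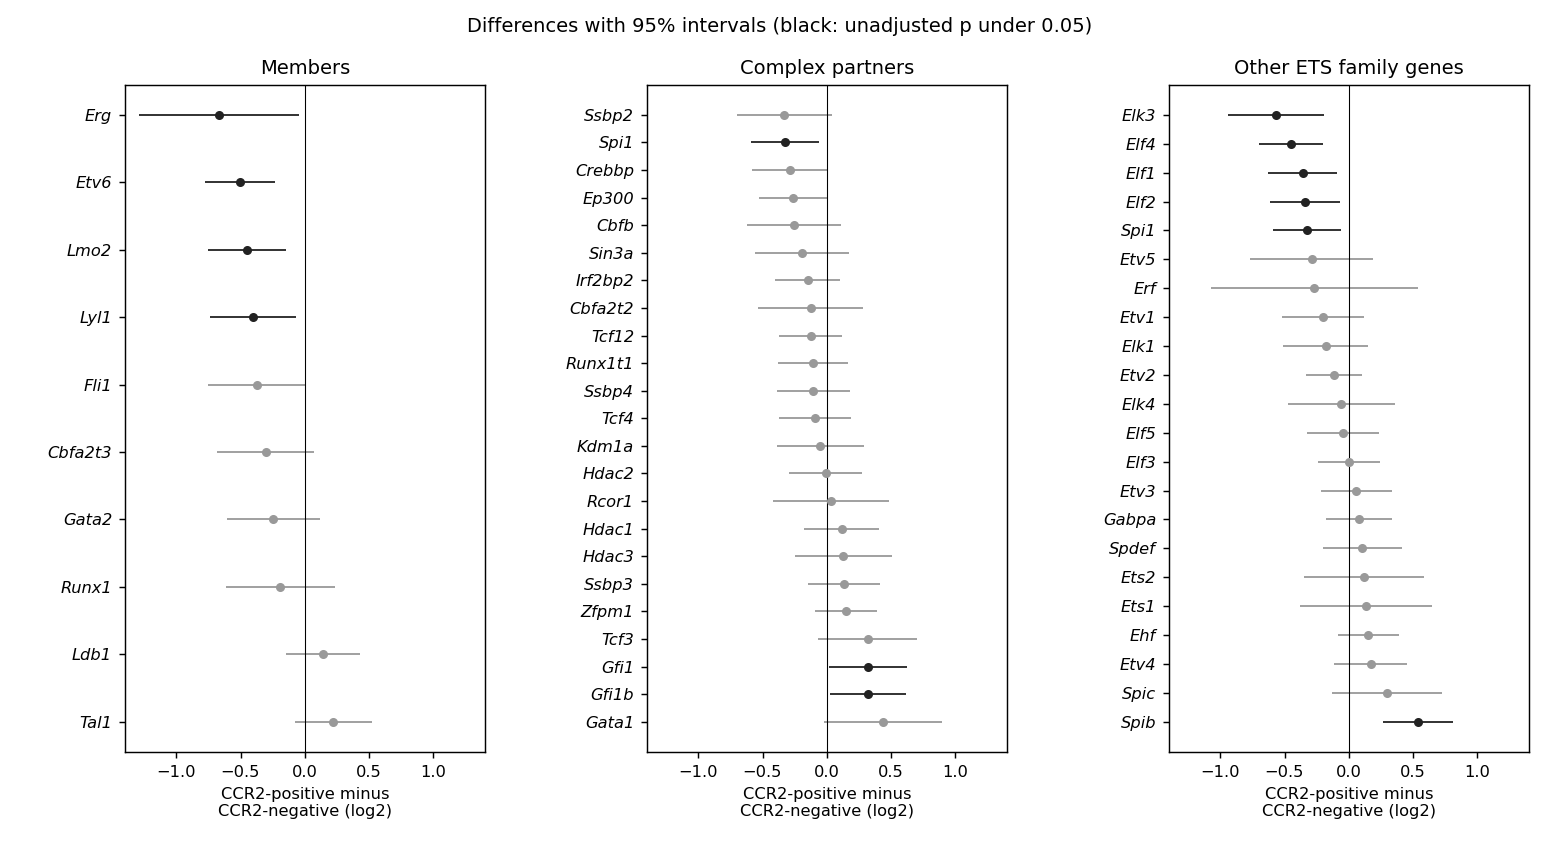
Difference between the groups (horizontal axis, log2, CCR2-positive minus CCR2-negative) with its 95% limma interval for the 10 members, 23 complex partners and 22 other ETS family genes, each from 3 pools per group. Black marks an unadjusted p under 0.05, reached by 4 members, 3 partners and 6 ETS genes, and no gene passed the adjusted threshold.

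The genes whose profile over the 6 pools was most like that of Cbfa2t3 were Efcab11, Scpep1, Lrp8, Trafd1 and Gtpbp1. Likeness was the root mean square difference between gene-centred log2 profiles, over 4720 genes of at least the median level and of at least 0.75 times the SD of Cbfa2t3, predicted genes and small RNAs left out. It was 0.039 for Efcab11, an EF-hand protein gene, and 0.060 for Gtpbp1, a GTP-binding protein gene. Of the members, Lmo2 came nearest to Cbfa2t3, with 0.120 and 93 genes closer, and Erg was farthest, with 0.468.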

How the data were processed

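The 6 arrays held 3 CCR2-positive and 3 CCR2-negative pools. Per the labels' protocols, 5 ng of total RNA per pool was amplified before labelling. The authors deposited log2 values of 41345 probe sets, made with RMA per the submitters' processing notes, and its version is not given in the sources used here. RMA equalises the arrays, so changes are relative to the rest of each array. Amplifying so little RNA can widen the differences between replicates, and the number of arrays limits the precision. The smallest and largest standard errors of the members were 0.12 and 0.27.

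Gene names came from the platform annotation. Of the probe sets, 23521 had 1 gene, 1814 had several and 16010 had none listed. For 1082 genes with several probe sets the one with the highest mean was used, and each member had 1. The groups were compared with limma 3.58.1 in R 4.3.3 (lmFit, eBayes) over 22180 genes, with Benjamini-Hochberg adjustment and a threshold of 0.05. The fit was tested on simulated data. Pairs of members were contrasted within pools by exact permutation tests. Nothing shows that pools were separate beyond the design's words "biological replicates", so p-values measure the spread between these pools.

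The 10 members and 16 further lists were chosen with earlier results of these data known. Of 180 symbols 167 were measured, and the others were not analysed here. Named genes were all members, Ccr2, the 4 genes of each list (3 of each marker list) with the smallest p, and the 5 most like Cbfa2t3. Hdac1, Hdac2, Hdac3, Cbfb, Kit, Myb, Elf2, Etv2, Cpa3 and Gca were named in addition after their values were seen. Alternatives were filters on dim genes, a second quantile normalization, median centring, cyclic loess, the replicate number as a block, other variance models, array weights, the mean of probe sets, all probe sets, and each pool left out in turn.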

Additional observations from a re-analysis of the deposited data

How the results depend on the processing

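All 10 members kept the sign of their difference in each of the 16 alternatives, and none passed an adjusted p of 0.05 in limma (smallest 0.112, for Etv6). The filters, the replicate block, the other variance models and both probe set settings cannot move a member's difference. Only the other alternatives could have changed a sign. Etv6 and Lmo2 had an unadjusted p under 0.05 in 16 of 16, Lyl1 and Erg in 10, Fli1 in 6, Cbfa2t3 and Tal1 in 1, and Gata2, Runx1 and Ldb1 in 0. The members at an unadjusted p under 0.05, 4 in all, were 2 after a second quantile normalization and 2 to 7 with 1 pool left out. Their median difference was -0.48 to -0.22 with 1 pool left out. Genes past an adjusted p of 0.05 were 0 to 2 with 1 pool left out. The 2 were Mcpt8 (2.70 ± 0.19) and Gca (-1.55 ± 0.13), without CCR2-positive replicate 1, and the cause was not tested. Genes at an unadjusted p under 0.05 were 1524 without those under the median level, where 11090 were tested, and 4410 with all 41345 probe sets. Same-numbered pools had deviations correlated at 0.035, 0.089 and 0.045 over genes, against -0.10 to 0.068 for differently numbered ones. These values do not settle whether pools were paired. No pairing is stated, so the numbers were not taken as pairs. The replicate block gave 5 members at an unadjusted p under 0.05, Fli1 added, and 0 genes past the adjusted threshold. List medians, recomputed after the data were seen, changed sign for 6 lists and so have no settled sign there: -0.12 to 0.16 for the family paralogs, -0.02 to 0.16 for E protein and ID genes, -0.08 to 0.14 for megakaryocyte, -0.06 to 0.12 for stromal, -0.24 to 0.11 for T and NK cell and -0.0053 to 0.16 for B cell markers. The filters leave few genes in some lists, down to 1 T and NK cell gene. No detection value was used here, so dim genes were not told from undetected ones.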

Other observations

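Of 9 endothelial markers 3 were lower and 1 higher at an unadjusted p under 0.05 (limma), against 12.2% of all genes in either direction. These 4 did not overlap between the groups, against 18.6% of all genes. No endothelial, stromal, megakaryocyte, B cell or T and NK cell marker passed an adjusted p of 0.05. Emcn, which encodes endomucin and is also a stem cell surface protein, differed by -0.92 ± 0.20, Tek is given above, and Plvap, a gene of fenestrated vessels, had 0.48 ± 0.13. Their mean log2 level was 6.27 to 6.30 in the CCR2-negative and 5.93 to 6.10 in the CCR2-positive pools. Fli1, Erg, Tal1 and Lmo2 are also expressed by endothelial cells, and the part of such cells was not tested. Of 8 stromal markers 1, the collagen gene Col1a2 (-0.45 ± 0.11), was lower and 0 were higher at an unadjusted p under 0.05. The shares of all genes were 6.61% and 5.63%, and the list median was 0.04. Cxcl12, the chemokine gene of the stem cell niche, had 0.26 ± 0.11 and Pdgfra 0.18 ± 0.17.

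Of 8 megakaryocyte and platelet markers 1 was lower, Gp9, and 0 higher at an unadjusted p under 0.05 (6.61% and 5.63% of all genes). Their median was -0.02. Without CCR2-negative replicate 1 there were 0 lower and 2 higher, with a median of 0.14. Ppbp, a platelet chemokine gene, had 0.80 ± 0.36. Of 8 B cell markers and 9 T and NK cell markers 0 were at an unadjusted p under 0.05, against 12.2% of all genes. Their medians were 0.10 and 0.11. The B cell factor genes Pax5 and Ebf1 had 0.24 ± 0.13 and 0.25 ± 0.14, and Vpreb1, a part of the pre-B cell receptor, 0.17 ± 0.12. Of the T and NK cell markers 7 were higher and 2 lower by any amount, where 44.0% of all genes were lower. Only 2 B cell markers and 1 T and NK cell marker lay at or above the median level. Ncr1, an activating receptor gene of NK cells whose pools did not overlap, had 0.22 ± 0.11. Nkg7, a granule gene of cytotoxic lymphocytes, had -0.24 ± 0.14 and Gzma, the granzyme A gene, 0.16 ± 0.15.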
